A study of Homo sapiens with 10 samples.

Results

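The imprinted genes DLK1, IGF2, PEG3, PEG10, SNRPN, NNAT, MEST, MEG3, H19 and CDKN1C were followed from human embryonic stem cells (ESCs) to neuroectodermal cells (NECs). The genes were chosen by name, and 9 of the 10 had a row among the 31017 genes of the RNA-seq count table. PEG3 expression was not analysed here. For promoter contacts, 9 of the 10 had their gene start inside a captured HindIII fragment (a bait), among 21833 baits. MEG3 had no bait at its gene start, and its 2 baits at other transcript starts are described separately.

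The ESCs were the line H9, and the NECs were derived from H9 and harvested on day 7 of differentiation. RNA-seq and promoter capture Hi-C (PCHi-C) were each made from 2 biological replicates per cell type, and ESC PCHi-C replicate 2 combined technical replicates. Everything therefore comes from 1 cell line, and the labels do not say whether the replicates were separate differentiations, so the spread may be partly technical. The ESC RNA libraries shared a sequencing lane and the NEC RNA libraries another, so cell type and lane cannot be told apart. Library totals ran from 19234087 to 25356382 counts. Of 10 pluripotency markers 9 were called lower in NECs, and all 10 neuroectoderm markers were called higher, which fits the labels. NECs also held more AFP, an alpha-fetoprotein gene of endoderm, with 170 and 239 counts in ESCs and 961 and 2579 in NECs. Neural crest markers summed to 283 CPM (counts scaled to a common library size) in NEC replicate 1 and 155 in replicate 2, against 153 and 140 in ESCs, and 6 of the 10 were called higher in NECs and 1 lower. Of 14 mesoderm and endoderm markers tested, 4 were called higher and 7 lower, and the list summed to 321 and 432 CPM in ESCs and 301 and 391 in NECs.

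Imprinted genes are expressed from only 1 of the 2 parental chromosomes, because DNA methylation laid down in the egg or the sperm marks one copy of a shared control region. They lie in clusters in which genes expressed from the father's copy, such as DLK1, IGF2, PEG3, PEG10, SNRPN, NNAT and MEST, sit near genes expressed from the mother's copy, such as MEG3, H19 and CDKN1C. Many control growth of the embryo and placenta, and in pluripotent stem cell lines some clusters are known to lose their parental marks in culture. The counts here do not separate the parental copies, so a level is the sum of both, and fewer cells expressing a gene cannot be told apart from less RNA per cell.

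A gene was called changed when edgeR's quasi-likelihood test gave a Benjamini-Hochberg adjusted p under 0.05 over all genes tested and the log2 fold change from ESCs to NECs passed 1.5 in either direction. All 9 genes with a row passed the filter on low counts, MEG3 through the NEC libraries alone. By this rule 5 of the 9 imprinted genes were higher in NECs (DLK1, IGF2, MEG3, H19 and CDKN1C), 1 was lower (SNRPN) and 3 were not called (PEG10, MEST and NNAT). Over all 17564 genes tested, 11.4% were called higher and 9.68% lower. The median log2 fold change was 2.25 over the 9 genes and 0.01 over all genes. All 3 maternally expressed genes were called higher, as were 2 of the 6 paternally expressed genes with a row.

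**Figure D1:**
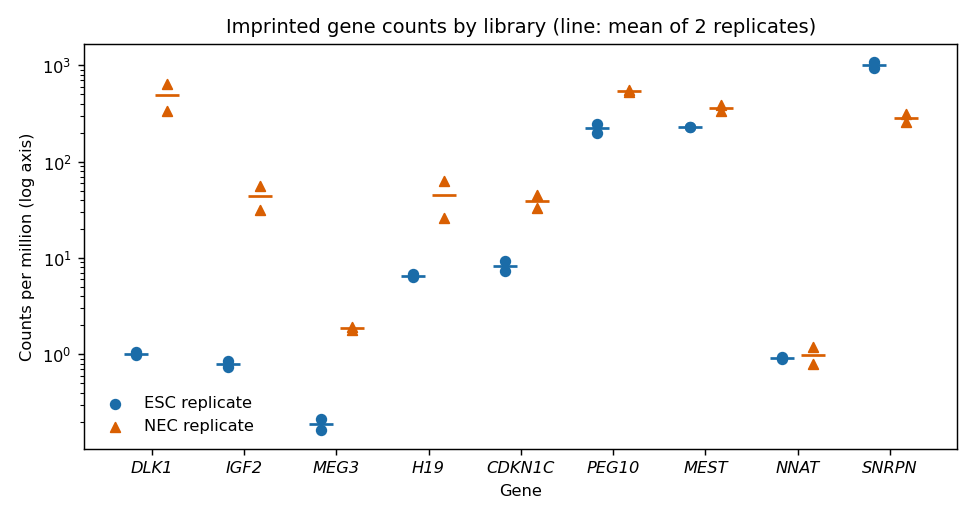
Library-scaled counts (CPM) of the 9 imprinted genes with a row in the count table, on a log axis, with 1 point per library (circles ESC, triangles NEC) and a line at the mean of the 2 replicates. The ESC and NEC points are apart for every gene but NNAT, and the NEC replicates of DLK1, IGF2 and H19 are farther from each other than those of MEG3 or PEG10.

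The largest change among the imprinted genes was that of DLK1, which encodes a transmembrane protein related to Notch ligands that holds back differentiation of precursor cells. DLK1 (chromosome 14, 101192042 to 101201539, GRCh37) had 20 and 24 counts in the ESC libraries and 13687 and 8328 in the NEC libraries. Both NEC libraries were far above both ESC libraries, while NEC replicate 1 was 1.90 times replicate 2 in CPM. The mean rose from 1.02 ± 0.0628 CPM (SD, n = 2) to 489 ± 214 CPM (SD, n = 2), a fold of 482. The log2 fold change was 8.91 with a standard error (SE) of 0.43 and an adjusted p of 3.16e-05. MEG3 (101245747 to 101327368, plus strand), a long non-coding RNA expressed from the maternal copy of the same cluster, had 4 counts in each ESC library and 41 and 44 in NECs. MEG3 thus rose from a very low level without overlap between the cell types, by 3.29 on the log2 scale (SE 0.39, adjusted p = 0.000706).

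Within 250 kb of the DLK1 start lie 11 other genes of the table, of which 7 had too few counts to test. The other 4, MEG3, RTL1, BEGAIN and the uncharacterised CTD-2062F14.3, were called higher, against 11.4% of all genes tested. All but BEGAIN passed the filter on low counts through the NEC libraries alone, so a higher value was built into their selection. With DESeq2 the call of CTD-2062F14.3 was lost (adjusted p = 0.0917). RTL1, a retrotransposon-derived gene needed for placental capillaries, had 0 and 1 counts in ESCs and 42 and 56 in NECs. The summed RTL1 counts gave a ratio of 92.8, with a 95% exact binomial interval of 16.3 to 3703 that covers counting error only. BEGAIN, a postsynaptic scaffold gene, went from 27 and 23 counts to 134 and 150 (log2 fold change 2.40, SE 0.29). DIO3, the thyroid hormone deiodinase at the far end of the cluster, rose from 5 counts in each ESC library to 102 and 65 (log2 fold change 3.97, SE 0.48). In the opposite direction MEG9, a maternally expressed non-coding RNA matched by its Ensembl identifier, fell from 11 and 22 counts to 3 and 1 (log2 fold change -3.02, SE 0.62, adjusted p = 0.00607). DIO3 passed the filter through the NEC libraries alone and MEG9 through the ESC libraries alone. The direction of each was thus built into its selection. The MEG9 call was lost without ESC replicate 2 (adjusted p = 0.0711). MEG8 had 3 and 0 counts in NECs and none in ESCs and was not tested.

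IGF2 and H19 share a cluster on chromosome 11 in which the growth factor IGF2 is made from the paternal copy and the non-coding RNA H19 from the maternal copy. IGF2 (2150342 to 2182439, minus strand) had 14 and 21 counts in ESCs and 1196 and 779 in NECs. H19 (2016406 to 2022700, minus strand) had 119 and 167 counts in ESCs and 1358 and 647 in NECs. The groups did not overlap for either gene, although H19 in NEC replicate 1 was 2.42 times replicate 2, and IGF2 1.77 times. On the log2 scale IGF2 rose by 5.76 (SE 0.37, adjusted p = 7.73e-05). H19 rose by 2.77 (SE 0.41, adjusted p = 0.00163), and leaving out single libraries moved this value between 2.01 and 3.28.

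DLK1, IGF2 and H19 were all higher in the NEC replicate with the higher sum of neural crest markers, and AFP was higher in the other replicate. AFP does not stand for its list, as 8 of the 15 mesoderm and endoderm markers were higher in NEC replicate 1 and 7 lower. The replicate with more neural crest markers, NEC replicate 1, also had the higher sum of neuroectoderm markers (634 against 463 CPM). Its sum of pluripotency markers was lower (343 against 576 CPM). The part of other cell types, or of the extent of differentiation, in the imprinted gene values was not tested. Of 17 genes within 250 kb of IGF2, 8 were tested and 4 called higher, against 11.4% of all genes tested. The 4 were H19 and 3 genes that passed the filter through the NEC libraries alone. MRPL23-AS1, an antisense transcript beside H19, had 7 and 6 counts in ESCs and 62 and 26 in NECs. INS-IGF2 (3 and 5 counts to 237 and 147) and AC132217.4 (2 and 0 counts to 116 and 71) overlap or adjoin IGF2. The counting ignored strand, so reads of overlapping transcripts such as IGF2, INS-IGF2 and IGF2-AS cannot be assigned to one of them. IGF2-AS was not tested. It had no count in ESCs and 18 and 9 in NECs, at least 8.52-fold higher against a floor of 3 counts over the ESC group.

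CDKN1C (chromosome 11, 2904443 to 2907111, minus strand), a cyclin-dependent kinase inhibitor gene that restrains cell division and is expressed from the maternal copy, had 174 and 181 counts in ESCs. In NECs it had 962 and 825, so both NEC libraries were above both ESC libraries and close to each other. The mean rose from 8.27 ± 1.34 CPM (SD, n = 2) to 39.2 ± 8.19 CPM (SD, n = 2). CDKN1C thus rose by 2.25 on the log2 scale (SE 0.19, adjusted p = 0.000215). In the same cluster KCNQ1, a potassium channel gene, rose from 10 counts in each ESC library to 50 and 41 (log2 fold change 2.10, SE 0.38). KCNQ1 passed the filter on low counts through the NEC libraries alone, so a higher value was built into its selection. SLC22A18, a transporter gene whose start is 13.8 kb from that of CDKN1C, rose from 53 and 82 counts to 211 and 201 (log2 fold change 1.55, SE 0.22). The SLC22A18 change lay near the fold threshold and missed it without ESC replicate 1 (1.42) or without NEC replicate 1 (1.41). KCNQ1OT1, the paternally expressed antisense RNA that silences the cluster on that copy, had 68 and 67 counts in ESCs and 41 and 59 in NECs and was not called (adjusted p = 0.144). PHLDA2, which limits placental growth, had 98 and 128 counts in ESCs and 44 and 49 in NECs, a log2 fold change of -1.36 that did not reach the fold threshold (adjusted p = 0.00285).

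SNRPN was the only one of the 9 imprinted genes called lower. It encodes a small nuclear ribonucleoprotein of the spliceosome and lies at the Prader-Willi locus (chromosome 15, 25068794 to 25223870, plus strand). The ESC libraries held 20306 and 23390 counts and the NEC libraries 5469 and 7648. No NEC library came near either ESC library, and the mean fell from 1011 ± 91.7 to 283 ± 38.2 CPM (SD, n = 2 each). The log2 fold change was -1.84 (SE 0.14, adjusted p = 0.000137). SNURF, encoded on the same transcript, and SNHG14, the long host transcript of the small nucleolar RNAs downstream, had log2 fold changes of -1.86 and -2.02. These transcripts share exons or positions with SNRPN, so their counts are not independent of it.

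All 5 genes within 250 kb of the SNRPN start were tested and called lower, against 9.68% of all genes tested. Of them, C15orf2 passed the filter through the ESC libraries alone. Besides SNURF and SNHG14 they were C15orf2 (67 and 176 counts to 1 and 3) and the non-coding RP11-701H24.3 and RP11-701H24.2. Both RP11-701H24 genes lie within the span of SNHG14, and counting ignored strand, so their counts are not independent of SNHG14. RP11-701H24.2 went from 3056 and 5510 counts to 316 and 499, a log2 fold change of -3.45 (SE 0.21). Of the genes of the locus at greater distance, MKRN3, a ring finger gene that restrains the onset of puberty, was called in the other direction and rose from 0 and 1 counts to 65 and 20. MKRN3 passed the filter through the NEC libraries alone, so a higher value was built into its selection. The summed MKRN3 counts gave a ratio of 80.5 with a 95% exact binomial interval of 14.1 to 3216 that covers counting error only. The fitted log2 fold change of MKRN3 moved between 4.85 and 8.37 when 1 library was left out. NDN, a gene of the MAGE family, had 543 and 669 counts in ESCs and 1347 and 1324 in NECs (log2 fold change 1.06, adjusted p = 0.000473), under the fold threshold. UBE3A, the maternally expressed ubiquitin ligase gene of Angelman syndrome, had a log2 fold change of -0.16 (adjusted p = 0.153).

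PEG10, MEST and NNAT were not called. PEG10 (chromosome 7, 94285637 to 94299007, plus strand), derived from a retrotransposon and needed for the placenta, had 4622 and 4967 counts in ESCs and 11841 and 12984 in NECs. Its log2 fold change of 1.28 (SE 0.12, adjusted p = 0.00032) passed the p threshold but not the fold threshold. MEST (chromosome 7, 130126046 to 130146133, plus strand), a gene of the hydrolase fold family expressed in embryonic mesoderm, had 4301 and 5615 counts in ESCs and 8216 and 8318 in NECs. MEST likewise passed the p threshold with a small log2 fold change of 0.67 (SE 0.10, adjusted p = 0.00185). With no fold threshold 7 of the 9 genes were higher and 1 lower, where 31.5% and 29.7% of all genes were.

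NNAT, neuronatin, is a proteolipid gene named for its expression in the newborn brain, and it lies in an intron of BLCAP (chromosome 20, 36149617 to 36152092, plus strand). In ESCs it had 17 and 23 counts and in NECs 17 and 29, so the groups overlapped. At these low counts no difference was detectable (log2 fold change 0.11, SE 0.35, adjusted p = 0.799). BLCAP itself had 875 and 1172 counts in ESCs and 1420 and 1454 in NECs (log2 fold change 0.42). Among 10 genes tested within 250 kb of NNAT, MEST or PEG10, edgeR and DESeq2 called 0, and 7 were higher at an unadjusted p under 0.05, against 33.8% of all genes. COPG2, which the table holds in 2 rows, was counted once.

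**Figure D2:**
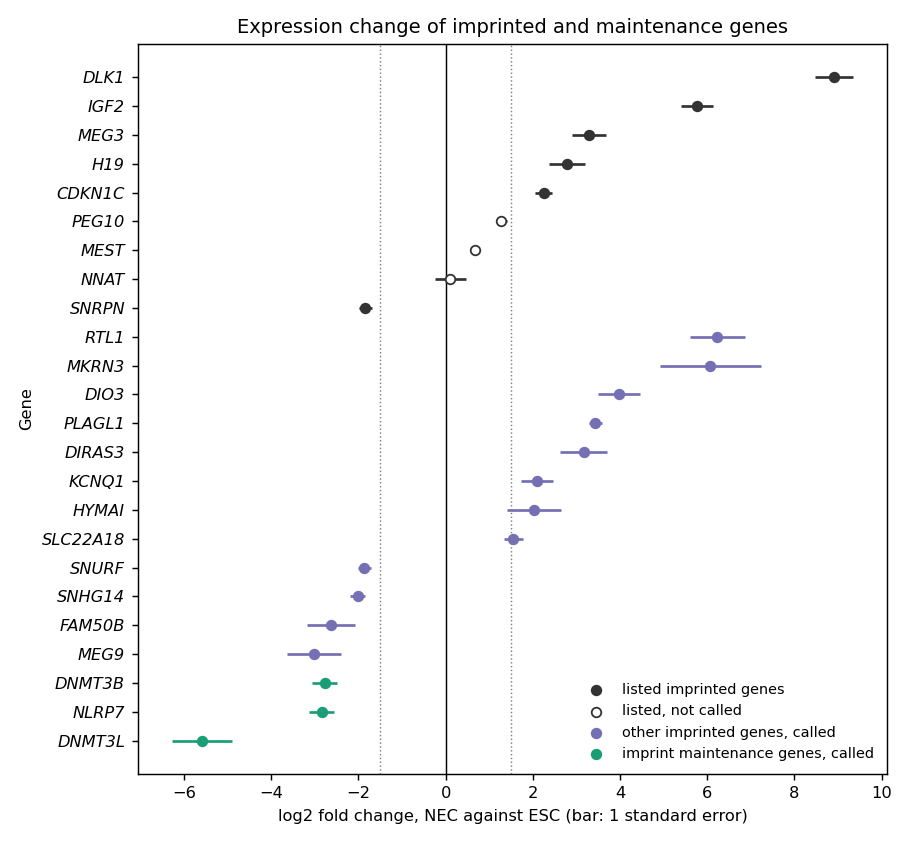
Log2 fold change from ESCs to NECs with 1 standard error for the 9 imprinted genes (black, open where not called), the called genes of a wider list of imprinted genes (purple) and the called imprint maintenance genes (green), with dotted lines at the fold threshold of 1.5. DLK1 is farthest to the right at 8.91 and DNMT3L farthest to the left at -5.59.

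A wider list of 53 imprinted genes held 48 in the count table and 38 with enough counts to test. Of these 8 were called higher in NECs, 4 lower and 26 not called, with a median log2 fold change of 0.72. Over all genes tested, 11.4% were called higher and 9.68% lower, with a median of 0.01. Of the 8 called higher 6 passed the filter through the NEC libraries alone, and 2 of the 4 called lower through the ESC libraries alone. Outside the clusters already described, PLAGL1, a zinc finger gene of transient neonatal diabetes, rose from 86 and 94 counts to 981 and 1092 (log2 fold change 3.44, SE 0.14). HYMAI, the non-coding RNA that shares the PLAGL1 promoter region, rose from 7 and 2 counts to 21 and 19 (log2 fold change 2.02, adjusted p = 0.0269). The HYMAI call was lost with DESeq2 (adjusted p = 0.128), without ESC replicate 2 (0.196) and without NEC replicate 1 (0.0804). DIRAS3, a Ras-related growth suppressor gene, rose from 1 and 3 counts to 16 and 24 (log2 fold change 3.17, SE 0.54). FAM50B fell from 19 and 17 counts to 4 and 2 (log2 fold change -2.63, SE 0.54), and its adjusted p was 0.0518 without ESC replicate 1. GNAS, which encodes a G protein subunit, had 14470 and 18306 counts in ESCs and 28715 and 34408 in NECs, and its log2 fold change of 0.86 was under the fold threshold.

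Genes whose products set or keep the methylation marks of imprinted regions were also followed. Of 11 tested, edgeR and DESeq2 each called 0 higher and 3 lower, where edgeR called 11.4% and 9.68% of all genes. Of those called lower, DNMT3L passed the filter through the ESC libraries alone, so a lower value in NECs was built into its selection. At an unadjusted p under 0.05, 2 were higher and 6 lower, against 33.8% and 32.0% of all genes. DNMT3B, a de novo DNA methyltransferase gene, fell from 27143 and 41429 counts to 3403 and 7295 (log2 fold change -2.77, SE 0.29). DNMT3L, its catalytically inactive partner, had 25 and 32 counts in ESCs and 1 and 0 in NECs, a ratio of 60.2 with a 95% exact binomial interval of 10.4 to 2418 for counting error only. Its fitted log2 fold change moved between -7.90 and -4.65 when 1 library was left out. NLRP7, a gene mutated in familial hydatidiform mole, fell from 197 and 268 counts to 23 and 46 (log2 fold change -2.84, SE 0.29). DNMT1 and UHRF1, which copy methylation to the new DNA strand, had log2 fold changes of -0.17 and -0.06 and were not called. ZFP57, the zinc finger protein that binds methylated imprinted regions, had 13 and 8 counts in ESCs and 0 and 4 in NECs and was not tested.

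PCHi-C enriches Hi-C ligation products that contain a promoter, and the deposited lists give a CHiCAGO score, a weighted negative log p-value, for each called pair of HindIII fragments. All listed pairs have a score of at least 12. What a bait contacts is termed a promoter-interacting region (PIR). Lists were available for each replicate and for the merged replicates of each cell type. They carry no read numbers, so the depth behind a score is unknown, and a pair missing from a list scored under 12 rather than being shown to lack contact. With 2 replicates against 2, an exact two-sided permutation test cannot go below p = 0.333, and PIR numbers are given without a test.

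The 9 gene-start baits together held 61 PIRs in the ESC merged list and 71 in the NEC merged list. The replicate lists held 64 and 35 PIRs for ESCs and 57 and 61 for NECs, so the ESC replicates spanned the NEC values. Both NEC replicates had more PIRs than both ESC replicates at 2 baits, DLK1 and MEST, against 13.2% of all 21768 baits with a call in any replicate. The reverse was found at 1 bait, H19, against 12.9% of all baits. At the other 6 baits the replicate numbers overlapped.

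**Figure D3:**
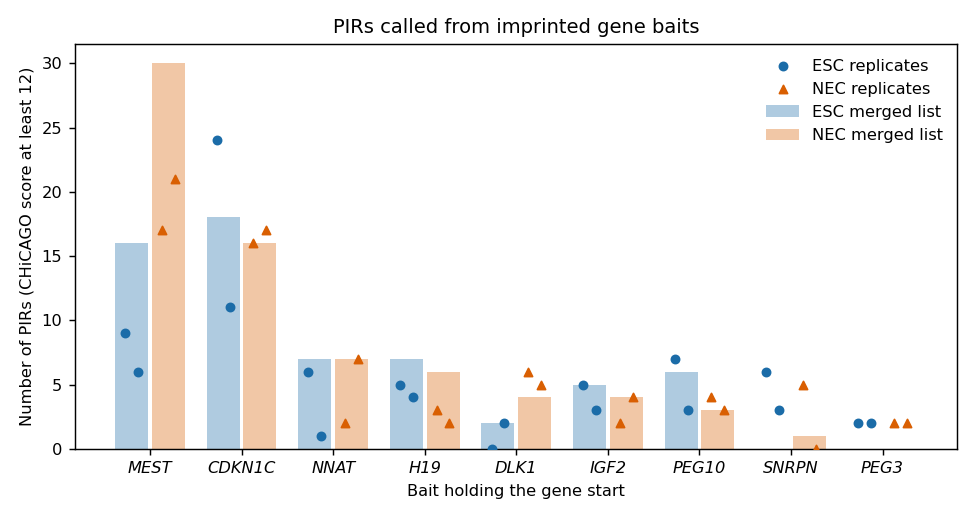
Number of PIRs called from the bait that holds each gene start, with bars for the merged lists and points for the replicates (blue ESC, orange NEC). MEST had the most PIRs, with 16 in the ESC and 30 in the NEC merged list, followed by CDKN1C with 18 and 16.

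In the ESC replicates MEST had 9 and 6 PIRs, against 17 and 21 in the NEC replicates. The numbers did not overlap, and 10 PIRs were shared by the 2 merged lists. The difference between the merged lists, 14 PIRs, ran from 1 (without NEC replicate 2) to 24 (without ESC replicate 1) when the remaining replicate's own list took the place of a merged list. The bait (chromosome 7, 130123397 to 130131393, GRCh37) also holds the start of the antisense RNA MESTIT1. Directly next to it a second bait (130131394 to 130136127) holds a further MEST transcript start, and it had 7 PIRs in the ESC and 15 in the NEC merged list. RefSeq start windows were matched by symbol for MEST, SNRPN, MEG3 and H19, 4 of the 10 genes, and not for DLK1, IGF2, PEG3, PEG10, NNAT and CDKN1C. Each of the 13 windows, taken from the RefSeq table on GRCh38.p14, matched GRCh37 exactly once. Because the contacts of MEST were read from both baits, the 250 bases before 1 RefSeq start in each are shown, at chr7:130125938-130126187 and chr7:130131676-130131925 on the plus strand. Capitals mark TGCCGC on either strand, the hexamer that ZFP57 recognises when methylated.
MEST gene-start bait: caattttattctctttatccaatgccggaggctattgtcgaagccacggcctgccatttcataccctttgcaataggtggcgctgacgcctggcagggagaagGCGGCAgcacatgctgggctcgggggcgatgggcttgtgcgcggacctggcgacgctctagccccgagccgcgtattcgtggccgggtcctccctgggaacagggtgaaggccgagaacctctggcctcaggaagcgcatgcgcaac
MEST second bait: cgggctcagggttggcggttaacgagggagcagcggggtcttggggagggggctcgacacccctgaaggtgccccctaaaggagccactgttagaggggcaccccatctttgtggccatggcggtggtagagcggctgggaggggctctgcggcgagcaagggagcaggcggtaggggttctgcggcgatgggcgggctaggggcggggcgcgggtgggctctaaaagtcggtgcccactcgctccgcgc
The window of 300 bases around the start (250 before and 50 after) held 22 CpG dinucleotides and 1 copy of TGCCGC in the first bait. In the second bait it held 25 CpGs and 3 copies, none of them wholly within the 250 bases shown. The median of all 35116 RefSeq start windows was 14 CpGs, and 16.7% of them held TGCCGC on either strand.

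Most MEST contacts ran in one direction. In the NEC merged list 29 of 30 PIRs, and in the ESC list 15 of 16, lay at lower coordinates, on the side of CPA4 and CPA5, which encode carboxypeptidases. A fragment in CPA5 at 129998366 to 130006558 scored 21.39 in NECs, was called in both NEC replicates (14.95 and 17.33), and was in no ESC list. The highest ESC score, 22.16, was at an intergenic fragment 246 kb away (129878838 to 129883417), which was called in all 4 replicates and scored 19.63 in NECs.

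From the second bait of MEST the same region was reached. The CPA4 promoter scored 16.6 in ESCs and 22.46 in NECs, and that of KLHDC10, 428 kb away, 18.33 and 27.88, both called in all 4 replicates. The 2 MEST baits shared 2 PIRs in ESCs, 12.5% and 28.6% of their PIRs, and 13 in NECs, 43.3% and 86.7%. CPA4 had 8 and 7 counts in ESCs and 6 and 8 in NECs and was not tested. KLHDC10 had a log2 fold change of 0.59 and was not called.

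CDKN1C was the other imprinted gene with many PIRs, with 24 and 11 for the ESC replicates against 16 and 17 for the NEC replicates. The ESC replicates lay on both sides of the NEC replicates. All PIRs of the bait (chromosome 11, 2904920 to 2914487) in both merged lists lay at lower coordinates, 165 to 617 kb away, and 12 of 18 in ESCs and 11 of 16 in NECs overlapped the KCNQ1 gene. The strongest in NECs was an exonic fragment of KCNQ1 at 2545012 to 2558430, 358 kb away, with a merged score of 34.54, against 20.57 in ESCs. Its replicate scores were 18.15 and 15.88 in ESCs and 24.82 and 32.68 in NECs. As this PIR was picked for the highest NEC score of the bait, the choice favours higher NEC values. The bait at the start of KCNQ1OT1 scored 24.15 in ESCs and 28.63 in NECs and was called in all 4 replicates (16.83 and 15.83, 17.3 and 21.33). In the reverse order, a fragment in KCNQ1 at 2538146 to 2543838 scored 20.81 in ESCs and 15.67 in NECs, with replicate scores of 18.43 and 16.06 against 13.68 and 14.42. Of the 13 PIRs shared by the merged lists, 6 scored higher in NECs and 7 lower.

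**Figure D4:**
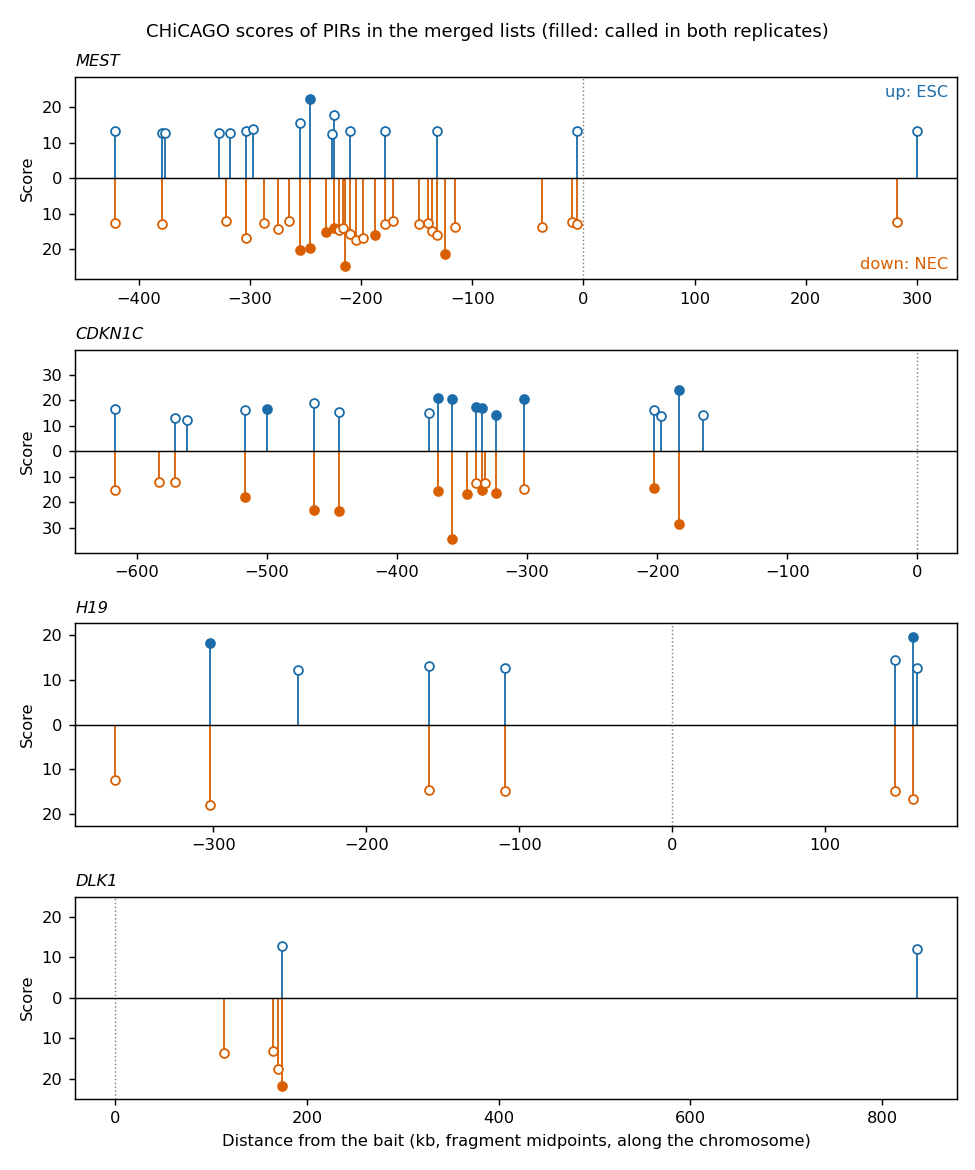
CHiCAGO scores of the PIRs of the MEST, CDKN1C, H19 and DLK1 baits in the merged lists against distance from the bait in kb, drawn upward for ESCs and downward for NECs, with filled circles where both replicates of that cell type called the PIR. The contacts of CDKN1C lie on one side only, those of H19 on both sides, and the highest score is 34.54 at 358 kb from CDKN1C in NECs.

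The H19 bait also holds the starts of MRPL23-AS1 and AC051649.6. For this bait the ESC replicates listed 5 and 4 PIRs, the NEC replicates 3 and 2, and the merged lists 7 and 6, of which 5 were shared. Its strongest ESC contact was a fragment inside IGF2 (2169843 to 2172797), 157 kb away. That fragment scored 19.61 in ESCs (replicates 15.65 and 15.52) and 16.64 in NECs, where replicate 1 gave 15.54 and replicate 2 did not call it. The bait that holds the start of IGF2-AS and a further IGF2 transcript start, 146 kb away, scored 14.38 and 14.73. On the other side, a fragment with the start of FAM99B, 302 kb away, scored 18.1 in ESCs and 17.98 in NECs.

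The H19 bait (2005194 to 2023179) and the next fragment (2023180 to 2029380) hold copies of 1 form of the core motif of CTCF, an insulator protein known to bind the unmethylated H19 control region. The core searched on both strands has 14 bases, of which those at positions 6 and 9 could be any base. The 5 copies found in GRCh37 from 5 kb before the bait to 30 kb after it are shown, because contacts of both H19 and IGF2 meet these fragments. All lie on the minus strand, each is written 5′ to 3′ on that strand, and capitals mark the core within 8 bases on each side. In order they lie at chr11:2021198-2021211, chr11:2022010-2022023, chr11:2023443-2023456, chr11:2023844-2023857 and chr11:2024249-2024262.
H19 bait, core 1: ggaagtggCCGCGCGGCGGCAGtgcaggct
H19 bait, core 2: ggaagtggCCGCGTGGCGGCAGtgcaggct
Next fragment, core 3: aaaagtggCCGCGCGGCGGCAGtgcaggct
Next fragment, core 4: ggaagtggCCGCGCGGCGGCAGtgcaggct
Next fragment, core 5: agaagtggCCGCGCGGCGGCAGtgcaggct
The bait held 2 copies and the next fragment 3. For comparison, 0.233% of windows of the length of the bait on chromosome 11 and 0.0851% of windows of the length of the next fragment held at least 1 copy on either strand. Of the other 13 baits described here, that of CDKN1C held 1 copy and the rest held none. Other forms of the CTCF motif were not searched, so a bait without a copy is not shown to lack CTCF motifs. The shares of windows likewise hold for this form alone. They do not show that the H19 fragments are richer in CTCF motifs than other fragments.

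From the gene-start bait of IGF2 (2175865 to 2185890), ESC replicates listed 5 and 3 PIRs against 2 and 4 for NEC replicates. The bait also holds the starts of INS and INS-IGF2. The numbers overlapped, and 3 PIRs of the merged lists were shared. The strongest contact in ESCs was the same FAM99B fragment that H19 contacted, at 15.22 (12.98 in NECs). In NECs it was a fragment with the starts of SYT8 and TNNI2, at 15.19 (12.97 in ESCs), which H19 also contacted with scores of 14.51 in NECs and 13.16 in ESCs. The H19 and IGF2 baits shared 3 PIRs in ESCs, 42.9% of those of H19 and 60% of those of IGF2, and 3 in NECs, of 6 and 4. From a second bait in IGF2 the strongest ESC contact, 17.23, was an intergenic fragment 421 kb away (1732024 to 1745956) that both ESC replicates called (12.58 and 15.6) and that was in no NEC list. This second bait (2155755 to 2164250) holds a further IGF2 transcript start as well as the start of IGF2-AS. It contacted the fragment with the 3 CTCF cores, with merged scores of 13.37 in ESCs and 15.42 in NECs. Only NEC replicate 1 called that pair alone (13.12). That bait had 12 PIRs in the ESC and 6 in the NEC merged list, while its replicates had 1 and 2 in ESCs and 3 and 1 in NECs.

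DLK1 contacts were few, with 0 and 2 PIRs for the ESC replicates, 6 and 5 for the NEC replicates, and 2 and 4 in the merged lists. The PIR shared by both lists was a fragment at 101364465 to 101372301, 174 kb from the DLK1 bait (chromosome 14, 101188816 to 101199332). It holds the start of RTL1 in GENCODE, whereas the count table puts that start at 101351184, outside the fragment. Its score was 12.74 in ESCs and 21.71 in NECs, and it was called in ESC replicate 2 (12.6) and in both NEC replicates (13.65 and 13.76). The other NEC contacts were a fragment in an intron of MEG3 at 13.61, the start of MEG8 at 13.13 and the fragment just before the shared one at 17.64, each called in 1 NEC replicate. The other ESC contact, 837 kb away at the start of DIO3, scored 12.12. All these contacts lay on the side of MEG3, RTL1 and DIO3. From its baits at 101311084 and 101320467, MEG3 had 2 and 1 PIRs in the ESC and 3 and 2 in the NEC merged list. By replicate the first bait overlapped, as single ESC lists held 3 and 4 and single NEC lists 5 and 0. The second bait ran against its merged lists, with 2 and 3 by ESC replicate but 0 and 1 by NEC replicate. Among the merged NEC contacts of the first bait was the DLK1 bait at 13.22, which neither NEC replicate called alone. The highest scores of the first bait were 12.59 at the DIO3 start in ESCs and 14.43 at the fragment shared by the DLK1 lists in NECs, the latter called in no replicate. Those of the second bait were 13.23 in ESCs, 738 kb away and called in both ESC replicates (12.14 and 12.97), and 13.58 in NECs, 723 kb away and called in NEC replicate 2 (14.34).

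SNRPN had no PIR in the ESC and 1 in the NEC merged list from its gene-start bait (25066950 to 25075734), and 6 and 3, then 5 and 0, in the replicates. The 1 PIR was the MAGEL2 promoter fragment at 12.23, called in ESC replicate 1 (13.67) and NEC replicate 1 (16.08). The second bait, at the SNURF start (25189344 to 25201889), held a contact that every replicate called. It reached the promoter of MAGEL2, a gene of the MAGE family, at 1304 kb, with scores of 16.81 in ESCs and 17.89 in NECs. The replicate scores were 16.94 and 16.6 in ESCs and 15.5 and 18.54 in NECs, which overlapped. MAGEL2 had 65 and 40 counts in ESCs and 169 and 144 in NECs, a log2 fold change of 1.46 just under the fold threshold. It passed that threshold with library size alone (1.52), with the replicate number as a block (1.504), without ESC replicate 1 (2.06) and without NEC replicate 2 (1.66), and was 0.99 without ESC replicate 2. Because this bait carries the contact, the 250 bases before the RefSeq SNRPN start within it are shown, at chr15:25199884-25200133 on the plus strand, with TGCCGC in capitals on either strand.
SNRPN second bait: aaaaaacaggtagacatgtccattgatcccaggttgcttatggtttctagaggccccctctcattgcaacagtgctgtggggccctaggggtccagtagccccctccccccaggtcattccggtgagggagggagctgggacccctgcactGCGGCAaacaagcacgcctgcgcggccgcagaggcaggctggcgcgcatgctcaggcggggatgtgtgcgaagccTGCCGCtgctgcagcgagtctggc
The window around this start held 18 CpGs and 2 copies of TGCCGC.

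The NNAT bait also holds the start of BLCAP, so its PIRs cannot be assigned to NNAT alone. It gave 6 and 1 PIRs by ESC replicate, 2 and 7 by NEC replicate and 7 in each merged list, of which 2 were shared. All lay at lower coordinates, between 18.8 and 342 kb away. The highest NEC score, 16.27 at an exonic fragment of RPN2 (35811129 to 35818103), came with calls in both NEC replicates (15.7 and 12.26) and in no ESC replicate. The highest ESC score, 14.25 at an intergenic fragment (35898053 to 35901577), came with calls in both ESC replicates and in no NEC replicate. PEG10, whose bait also holds the start of SGCE, had 7 and 3 PIRs by ESC replicate, against 4 and 3 by NEC replicate. Its highest score, 17 at an intergenic fragment 820 kb away, came from ESC replicate 1 (22.91) and was in no other replicate. In NECs the highest score was 13.19, at an intronic fragment 856 kb away that NEC replicate 1 called (12.66). PEG3 had no PIR in either merged list and 2 in each of the 4 replicate lists, and 5 calls in ESCs and 3 in NECs reached its fragment from other baits. Among those, the bait of NLRP5 scored 13.54 in ESCs and was called in both ESC replicates (12.59 and 14.55) and NEC replicate 1 (12.35).

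Contacts between the promoters of imprinted genes were then collected over the 10 genes and the wider list, which occupied 47 baits. These baits formed 81 pairs within 2 Mb of each other. Of these, 11 were called in the ESC and 17 in the NEC merged list, 7 in both. In the replicates 10 and 8 pairs were called for ESCs and 10 and 14 for NECs, so the groups met at 10. The pair MAGEL2 to ATP10A, called in ESC replicate 2 alone, is the one counted pair beyond 2 Mb (2216 kb). A pair can be called from either bait, and the higher score was taken. Called in all 4 replicates were 3 pairs, KCNQ1 to CDKN1C, KCNQ1OT1 to CDKN1C and MAGEL2 to SNURF. KCNQ1 to CDKN1C, 445 kb apart, scored 15.65 in ESCs and 23.58 in NECs. The ESC replicates gave 14.61 and 13.75, the NEC replicates 20.52 and 22.13. From the CDKN1C bait alone the pair scored 15.52 and 23.58, and ESC replicate 2 did not call it. The replicate scores of the pair did not overlap, and how often this holds over all contacts was not counted. Both genes were called higher in NECs, but KCNQ1 passed the filter on low counts through the NEC libraries alone. The pair of the MEST gene-start bait with CPA4 scored 18.34 in NECs, was called in both NEC replicates (12.4 and 15.2) and was listed for no ESC replicate, whereas the second MEST bait contacted CPA4 in all 4 replicates. KCNQ1 to SLC22A18 was the opposite case, at 14.38 in ESCs with calls in both ESC replicates (12.37 and 15.24) and in no NEC list. Yet KCNQ1 and SLC22A18 were also both called higher in NECs. KCNQ1 to PHLDA2 scored 15.31 in NECs, with calls in both NEC replicates (12.44 and 17.7) and in no ESC list. PHLDA2 had a log2 fold change of -1.36, which did not reach the fold threshold. Whether contact and expression changed together was not tested. Pairs on chromosome 7 within 1 Mb of MEST were 1 in ESCs and 5 in NECs, and 3 of these 5 were called in 1 replicate at most.

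**Figure D5:**
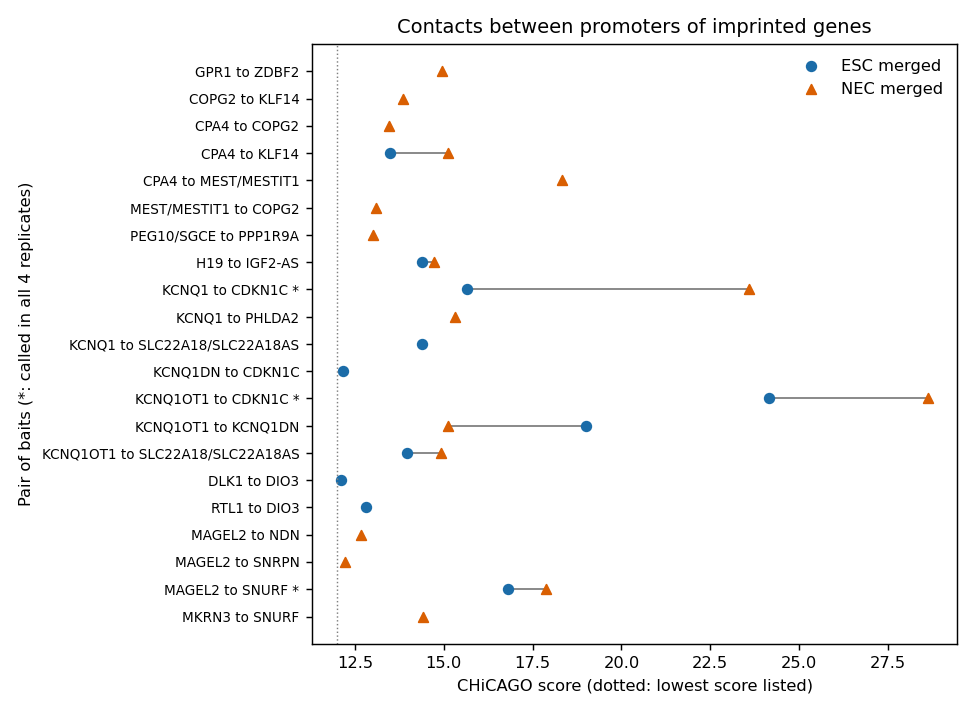
Merged CHiCAGO scores of the pairs of imprinted gene baits called in ESCs (circles) or NECs (triangles), with a grey line joining the scores of a pair called in both and an asterisk where all 4 replicates called it. A missing symbol means a score under 12. The 3 pairs called in all replicates include the 2 pairs with the highest NEC scores, 23.58 and 28.63, both at CDKN1C.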

How the data were processed

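RNA-seq libraries and PCHi-C libraries of H9 ESCs and day 7 NECs were analysed, 2 per cell type and assay. For RNA-seq, the authors trimmed reads with Trim Galore, aligned them to GRCh37 with TopHat (TopHat2 2.0.8b in the submitters' processing notes) and counted reads over Ensembl genes without regard to strand. The deposited table holds these raw counts, not normalized. For PCHi-C, the authors mapped and filtered read pairs with HiCUP on GRCh37 and called contacts with CHiCAGO, for each replicate and for merged replicates. The deposited score is given for pairs at or above 12, without read numbers, so its depth is unknown.

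Counts were filtered with filterByExpr (minimum count 10), which left 17564 genes, scaled by TMM and tested with edgeR 4.0.16 in R 4.3.3 (quasi-likelihood test, Benjamini-Hochberg adjustment over all genes tested, no replicate block). DESeq2 1.42.0 without independent filtering was an alternative. The pipeline was first tested on simulated data. Standard errors are the log2 fold change divided by the square root of F. Where a group held 1 to 3 counts in sum, a ratio with an exact binomial interval is given, since fitted fold changes then depend on the prior count. A bait was assigned by the gene start in the count table, or in GENCODE for PEG3, and fragments it contacts were annotated with GENCODE (GRCh37). Distances are between fragment midpoints, and both ends of all 14 baits described were HindIII cuts in GRCh37. Lists were analysed with Python 3.11.15, numpy 2.4.6, pandas 2.3.3 and scipy 1.17.1, and drawn with matplotlib 3.10.9.

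The members and gene lists were chosen with earlier results of these data known. Named genes are all members, the called genes of the imprinted and maintenance lists, called genes within 250 kb of a member's start, and for each bait the highest PIR of each merged list and up to 3 PIRs in all 4 replicates. Values of contacted or uncalled genes beyond these were added after they were seen, as was the choice of sequences. Alternatives were scaling by DESeq2's size factors or by library size, the DESeq2 test, no filter, no fold threshold, the replicate number as a block, leaving out each library, a score threshold of 15, calls in both replicates, baits at any transcript start, contacts within 2 Mb, and the other end within 10 kb. The conventional Hi-C was not used here. The highest NEC PIR of the MEST gene-start bait is not reported here.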

Additional observations from a re-analysis of the deposited data

How the results depend on the processing

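The counts of 5 imprinted genes called higher and 1 lower were the same under every alternative but no fold threshold (7 higher and 1 lower), and the log2 fold changes of DLK1, IGF2, MEG3, H19, CDKN1C and SNRPN stayed past the thresholds in all 10 alternatives. In the wider list, no fold threshold gave 22 higher and 8 lower, and leaving out 1 library gave 8 to 11 higher and 3 to 5 lower. The sign of a log2 fold change near 0 turned with library size alone for ZNF331 (0.0441), MESTIT1 (0.0183), NAA60 (0.0183) and UHRF1 (0.00357). Leaving out 1 library moved NNAT between -0.21 (without NEC replicate 2) and 0.36, ZNF331 between -0.0969 and 0.0466 (without NEC replicate 1, and 0.0370 without ESC replicate 2), MESTIT1 between -0.40 and 0.32 (without ESC replicate 1), and UHRF1 between -0.19 and 0.0658 (without NEC replicate 1). The cause was not tested.

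The replicate numbers in the labels are shared numbers only. Across 17564 genes the replicate differences of ESCs and NECs correlated at r = 0.0740, and with the replicate number as a block 5 imprinted genes were higher and 1 lower, and 9 and 4 of the wider list.

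For contacts, the H19 difference in merged PIRs (-1, NECs minus ESCs) became 2 without ESC replicate 1 and 1 without ESC replicate 2, and ranged from -5 to 2. The summed difference over the 9 baits was 10 and ranged from -4 to 36 when 1 replicate was left out, 36 without ESC replicate 1. At a score threshold of 15 the 11 and 17 promoter pairs became 4 and 7, and with the other end within 10 kb 22 and 26. The lists give no read numbers, so depth could not be set against these changes. Genes that did not reach about 10 counts in at least 2 libraries were not tested.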
